A study of Homo sapiens with 12 samples.

Results

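The autophagy genes described here are 37 human genes, found by symbol among the 20212 genes of the count table, and all 37 were found. They comprise the kinase complex that starts autophagy, the lipid kinase complexes, the membrane and conjugation machinery, the ATG8 proteins with their proteases, 4 cargo receptors, and TFEB, TFE3 and MITF. They were measured in PANC-1, an established line of human pancreatic duct carcinoma cells, in 2 groups of 3 cultures each. The control cultures were treated with the solvent DMSO and the others with 50 nM rapamycin for 60 min, all in complete medium. Each culture gave a library of ribosome-protected fragments (RF), which reports the mRNA covered by ribosomes, and a library of total RNA, so there were 12 libraries. The 6 samples are called cultures here and all are of 1 cell line. The study calls them biological replicates without saying whether they were grown separately, so the p-values measure the spread between these samples only, which may be technical.

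Autophagy encloses cytoplasm in a double membrane, the autophagosome, and delivers it to the lysosome for breakdown. The mTORC1 kinase holds this process down in fed cells, because it phosphorylates the ULK1 complex and keeps TFEB and TFE3, transcription factors of lysosomal and autophagy genes, in the cytoplasm. Rapamycin binds FKBP12 and the pair inhibits mTORC1. Neither of those steps is a change in mRNA or in ribosome cover, which are what the libraries measure.

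The RF libraries were shallow. Their totals were 303220, 881106 and 1574723 counts for DMSO replicates 1 to 3 and 1255675, 792690 and 278835 for rapamycin replicates 1 to 3, against 78081241 to 94293744 counts in the total RNA libraries. The level that a count of 0 still allows, 3 counts, came to 1.91 to 10.8 CPM (CPM being counts scaled by the library's total) in RF and at most 0.0384 CPM in total RNA, for counting error only. Total RNA of DMSO replicates 1 and 2 had counts on 16840 and 16858 genes, and the other 4 libraries on 19751 to 19847, although all 37 autophagy genes had over 3 counts in all 6. The ductal keratin KRT8 stood at 3491 to 3654 CPM of total RNA, and the 6 markers of duct epithelium summed to 7669 to 8043 CPM. Nearly all of that sum was KRT8, KRT18 and KRT19. The duct markers KRT7 and EPCAM were low, at 5.44 to 6.94 and 7.37 to 8.33 CPM. Markers of acinar, islet and endothelial cells each summed to under 1 CPM there. The 4 fibroblast markers summed to 4.27 to 7.05 CPM, with only COL1A1 over 1 CPM in all libraries, and of the 5 leukocyte markers only CD68, a lysosomal membrane protein of many cell types, was over 1 CPM in all libraries.

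The 37 genes drew 9563 RF counts in all. Per library, their share of the RF counts ran from 0.177% (exact binomial 95% interval 0.168 to 0.186) in DMSO replicate 2 to 0.201% (0.193 to 0.209) in rapamycin replicate 1. These intervals cover counting error only, not the spread between cultures. SQSTM1, the receptor known as p62, held 46.0% of those counts, and the other 36 genes together took 0.0963% to 0.110% of a library. The median gene had 96 RF counts over the 6 libraries and 26 genes had at least 60. At or under 3 counts stood 12, 11 and 3 genes in DMSO replicates 1, 2 and 3, and 4, 4 and 13 genes in the rapamycin replicates. The most shallow libraries were thus DMSO replicate 1 and rapamycin replicate 3, and for many members a single RF library says little.

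**Figure D1:**
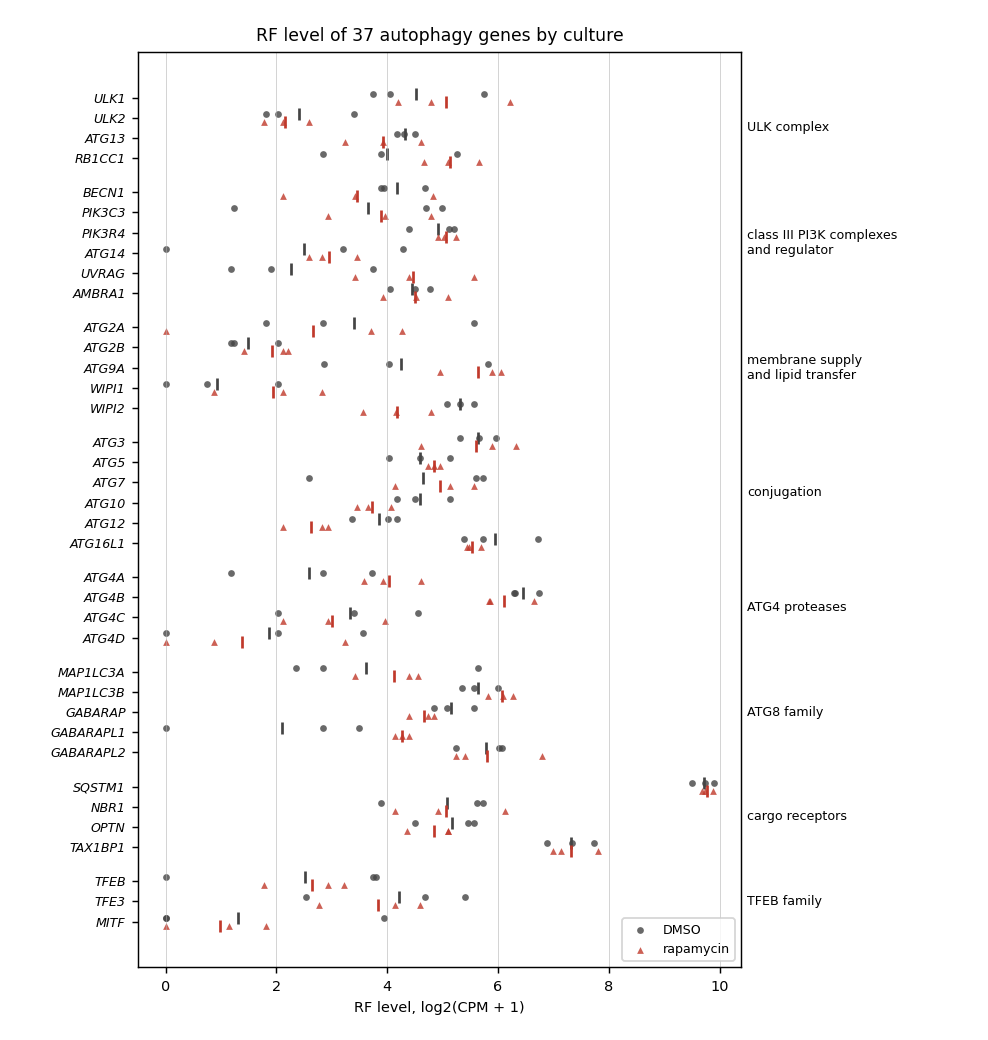
RF level of the 37 autophagy genes on the log2(CPM + 1) scale (horizontal axis), with the genes in rows grouped by role, 1 point per culture (DMSO circles, rapamycin triangles) and a vertical mark at the mean of the 3 log2 values. SQSTM1 stands alone at 726 to 949 CPM, and for most other genes the cultures of a group are spread wider than the groups are apart.

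Per kilobase of coding sequence, SQSTM1 had the highest RF level in DMSO, at 639 ± 84.9 CPM per kb (mean ± SD, n = 3). Next came 3 ATG8 genes, GABARAPL2 at 159 ± 46.7, MAP1LC3B at 132 ± 31.5 and GABARAP at 101 ± 27.3 CPM per kb, and the protease gene ATG4B at 73.7 ± 13.7. From GABARAPL2 to GABARAP each differed from the next by less than the larger SD of the pair, so their order is not set by these cultures. The lowest were ATG2B, at 0.30 ± 0.16, and WIPI1, at 0.94 ± 1.21 CPM per kb. In total RNA, where cuffnorm's FPKM corrects for transcript length, SQSTM1 was again highest at 622 ± 24.6 FPKM and ATG2B lowest at 1.62 ± 0.34, and 26 of the 37 genes were at 10 FPKM or more. The median gene stood at the 64.5th percentile of total RNA among the tested genes.

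The translation efficiency (TE) is the RF level over the total RNA level. To compare genes with each other it was taken per length, as RF CPM per kb of coding sequence over FPKM, which 12858 tested genes had. On that scale the 37 genes had a median percentile of 34.1 in DMSO and 29.0 in rapamycin, and 8 of 37 lay above the middle of all genes in either group. High in DMSO were MAP1LC3A, at the 81.7th percentile, MAP1LC3B at the 81.6th and GABARAPL2 at the 80.4th. They are ATG8 genes, whose small ubiquitin-like proteins coat the autophagosome. The ATG8 genes GABARAP and GABARAPL1 were lower, at the 49.2nd and 40.2nd. MAP1LC3A had RF counts of 2, 39 and 6 in DMSO (6.15, 49.0 and 4.08 CPM), so its rank rests mostly on DMSO replicate 2. Low were UVRAG, at the 2.33rd percentile, and the large scaffold RB1CC1, at the 3.65th. Without the length correction the median percentile was 25.6 in DMSO and 31.1 in rapamycin. These positions are descriptions of genes that share their libraries, with no test.

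**Figure D2:**
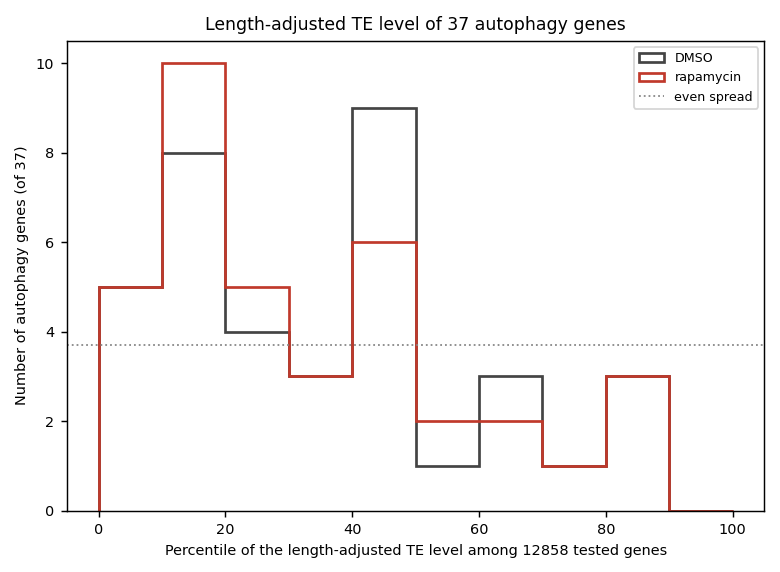
Number of the 37 autophagy genes (vertical axis) in steps of 10 percentiles of the length-adjusted TE level among the 12858 tested genes that have one (horizontal axis, percentile), with DMSO in grey, rapamycin in red and the number an even spread would give as a dotted line. In both treatments 8 genes lie above the 50th percentile and 29 below it.

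Rapamycin against DMSO asks which of these mRNAs gain or lose ribosomes within the hour. A change in TE was tested as the term for treatment acting differently on RF than on total RNA, in 1 quasi-likelihood model of edgeR over all 12 libraries and 13329 genes with at least 10 counts in RF and 10 in total RNA. Of the 37 genes 36 could be tested, and WIPI1, a lipid-binding protein of the early membrane, had 9 RF counts in all (1, 0 and 1 in DMSO, 1, 5 and 1 in rapamycin) and was left out. None of the 36 passed an adjusted p of 0.05, as none of the 13329 did (0.0%), and the smallest adjusted p was 0.231 among the members and 0.180 among all genes. At an unadjusted p under 0.05, TE was lower for 2 of 36 members, WIPI2 and ATG12, against 6.42% of all tested genes, and higher for 2, UVRAG and GABARAPL1, against 6.17%. The shares of the members are close to those of the tested genes. The libraries are from whole cultures, in which fewer cells with an mRNA and less of it per cell cannot be told apart. The fitted log2 changes divided evenly, with 18 of 36 below 0 against 53.7% of all genes, and their median was 0.02 against -0.06 over all genes.

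Another test and another design gave different counts for the same table. DESeq2's Wald test called the same 4 genes at an adjusted p under 0.05, 2 lower against 4.37% of all genes and 2 higher against 4.92%. By the study's design each of the 6 samples gave RF and total RNA, and the 2 libraries of a sample are matched here by the number in their labels. The deviations of such pairs from their group means did not go together (r from -0.10 to 0.01 over 6 pairs, across genes). With the culture as a block in edgeR no member was lower at an unadjusted p under 0.05 (2.15% of all genes) and UVRAG alone was higher (1.41%). Leaving out DMSO replicate 3, the deepest RF library, left 33 members tested, of which ATG9A was higher at an adjusted p under 0.05 in edgeR (0.522% of all genes) and none lower (2.66%). At an unadjusted p under 0.05, 4 of the 33 were then lower, against 13.3% of all genes, and 5 higher, against 9.94%. The DMSO total RNA libraries left in that setting are those with counts on 16840 and 16858 genes. The total RNA test then called 683 genes higher and 4 lower at an adjusted p under 0.05 in edgeR, against 0 over all cultures. That limits what the TE calls of this setting can say.

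**Figure D3:**
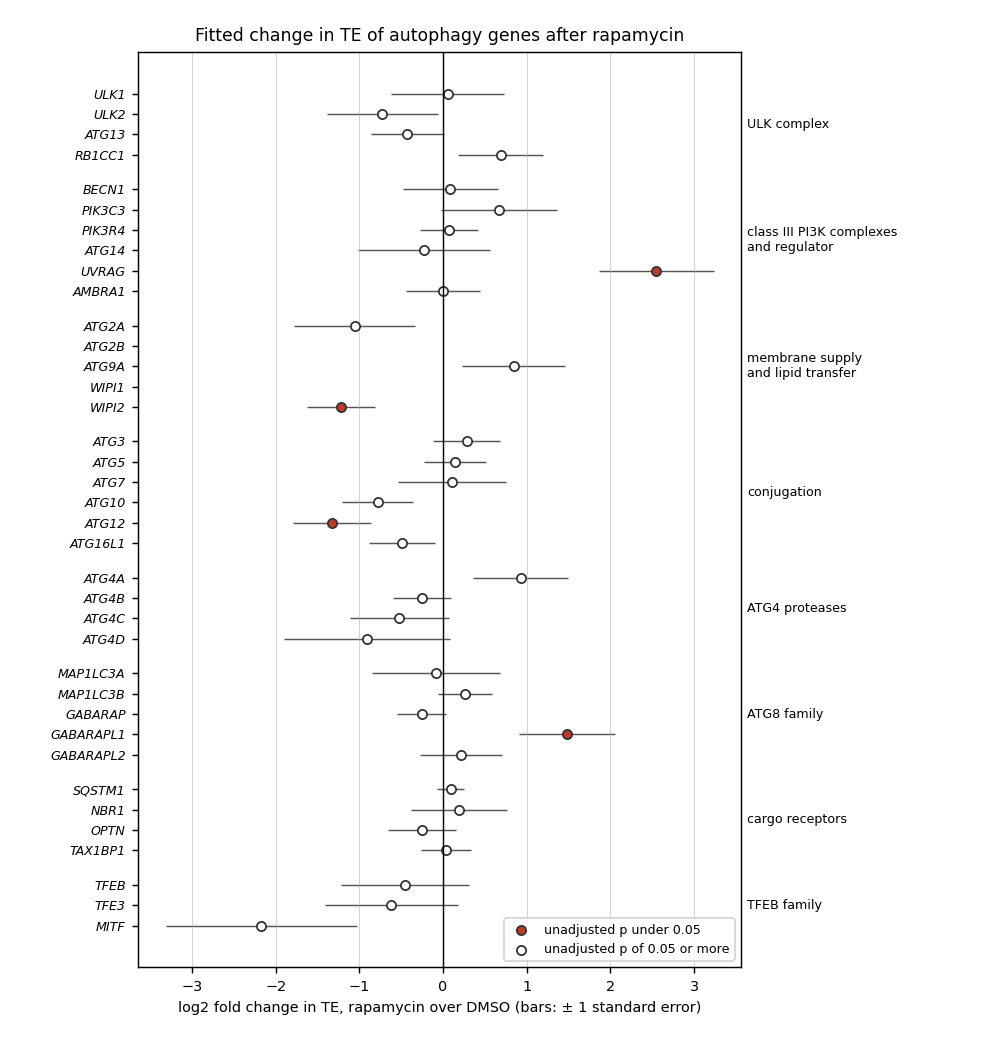
Fitted log2 fold change in TE, rapamycin over DMSO (horizontal axis, bars ± 1 standard error from edgeR's quasi-likelihood test), for 35 of the 37 genes in rows grouped by role, with filled points at an unadjusted p under 0.05. UVRAG and GABARAPL1 lie to the right, WIPI2 and ATG12 to the left, and no gene passes an adjusted p of 0.05; WIPI1 was not tested and ATG2B had at most 3 RF counts in every library.

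RF alone and total RNA alone were tested in the same way within their own 6 libraries. In RF no member and no gene passed an adjusted p of 0.05 in edgeR (0.0%), and no member did in DESeq2, against 0.0075% of all genes lower and 0.03% higher. UVRAG was higher at an unadjusted p under 0.05, 1 of 36 against 1.76% of all genes, and no member was lower against 1.92%. The members' median log2 change in RF was -0.16, against 0.02 over all genes, with 20 of 36 below 0 against 48.7%. The biological coefficient of variation that edgeR fitted was 54.9% in RF and 5.31% in total RNA, a spread in RF that limits its test to large changes. The TE model, with 1 spread per gene for both library types, fitted 24.4%. For UVRAG its standard error was 0.69 against 1.04 in RF alone, and for WIPI2 0.40 against 0.60. For ATG12 it was 0.47 against 0.95, and for GABARAPL1 0.57 against 1.04. The TE p-values and standard errors may therefore understate the spread in RF. In RF alone edgeR's unadjusted p for these genes was 0.033, 0.068, 0.188 and 0.124, in that order.

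Differences in total RNA were small. The fitted log2 changes of the 36 tested genes ran from -0.11 for ATG4A to 0.13 for ULK1, with a median of -0.02 against 0.01 over all genes, and no member and no gene passed an adjusted p of 0.05 in edgeR (0.0%), nor did a member in DESeq2, against 0.03% of all genes lower and 0.188% higher. MAP1LC3B was the only member higher at an unadjusted p under 0.05, against 3.32% of all genes, and none was lower against 2.51%. Total RNA of 25 of the 36 was lower by the fitted change, against 46.8% of all genes, among them all 6 conjugation genes and all 4 cargo receptors. Those 10 genes lay between -0.07 and -0.01 on the log2 scale, and none of them had an unadjusted p under 0.05. In contrast, 3 of the 4 tested membrane supply genes and 3 of the 5 ATG8 genes were higher. How often whole gene groups go to the same side was not computed.

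**Figure D4:**
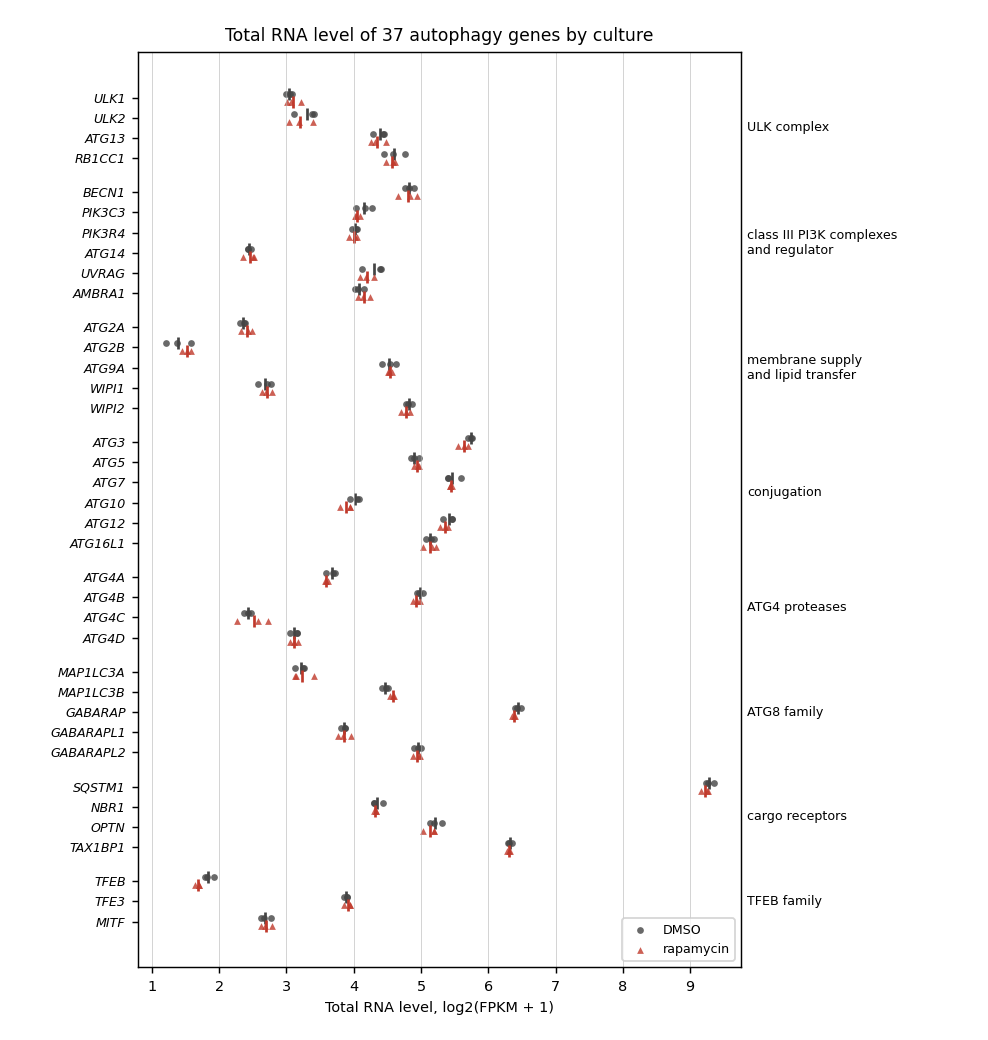
Total RNA level of the 37 autophagy genes on the log2(FPKM + 1) scale (horizontal axis), with the genes in rows grouped by role, 1 point per culture (DMSO circles, rapamycin triangles) and a vertical mark at the mean of the 3 log2 values. The levels run from ATG2B and TFEB at the left to SQSTM1 at the right, and the points of the treatments sit almost on each other for most genes.

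The ULK complex receives the signal from mTORC1. Its kinase ULK1 was read 4, 42 and 23 times by RF in DMSO (12.3, 52.8 and 15.6 CPM) and 21, 22 and 22 times in rapamycin (17.4, 26.6 and 73.2 CPM). The treatments overlapped, and the fitted change in TE was 0.06 ± 0.68 (log2, ± standard error). The median change of the 4 genes was -0.18, with the second kinase ULK2 at -0.73, the regulatory subunit ATG13 at -0.43 and RB1CC1, also called FIP200, at 0.69. None of the 4 had an unadjusted p under 0.05, with 2 below 0 and 2 above.

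BECN1, PIK3C3 and PIK3R4 form the core of the lipid kinase that marks the growing membrane with phosphatidylinositol 3-phosphate. ATG14 directs that core to autophagosome formation and UVRAG to endosomes and later steps, while AMBRA1 is a regulator. UVRAG (ENSG00000198382, chr11:75526255-75855276 of GRCh37, plus strand) was at 4, 1 and 4 RF counts in the DMSO cultures, or 12.3, 1.26 and 2.72 CPM. In rapamycin it had 24, 8 and 14 counts, or 19.9, 9.68 and 46.6 CPM. Each rapamycin culture held more UVRAG counts than any DMSO culture, but on the CPM scale the lowest rapamycin culture was below DMSO replicate 1. Its total RNA was 42.3 to 44.3 CPM in DMSO and 39.9 to 44.1 in rapamycin. The fitted change in TE was 2.55 ± 0.69 on the log2 scale, the largest increase among the members, with edgeR's unadjusted p of 0.0023 and adjusted p of 0.231. The RF change alone was 2.43 ± 1.04, with an unadjusted p of 0.033 in edgeR. With a culture left out the TE change ran from 2.11 to 3.34, and the DMSO mean it is read against rests on 9 counts.

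The other 5 genes of the lipid kinase group had fitted TE changes between -0.23 for ATG14 and 0.67 for PIK3C3. RF counts of BECN1 were 8, 11 and 21 in DMSO (24.6, 13.8 and 14.3 CPM) and 33, 8 and 1 in rapamycin (27.4, 9.68 and 3.33 CPM). The rapamycin cultures held both the highest and the lowest BECN1 level, and its TE change was 0.09 ± 0.57. That sign turned in several alternatives, and without rapamycin replicate 1 the value was -0.95.

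Membrane supply and lipid transfer is the work of the ATG2 proteins, which carry lipid into the growing membrane, of ATG9A, the scramblase whose vesicles seed it, and of the WIPI proteins, which read phosphatidylinositol 3-phosphate. WIPI2 (ENSG00000157954, chr7:5229827-5273471 of GRCh37, plus strand) recruits the conjugation machinery. Its RF level was 46.1, 39.0 and 32.6 CPM in DMSO (15, 31 and 48 counts) and 10.8, 16.9 and 26.6 CPM in rapamycin (13, 14 and 8 counts). Each rapamycin culture was lower than each DMSO culture in RF and in TE, while total RNA overlapped at 74.0 to 76.0 against 69.1 to 76.2 CPM. The fitted TE change was -1.22 ± 0.40 on the log2 scale, with an unadjusted p of 0.0088 and an adjusted p of 0.250 in edgeR. Its range with a culture left out was -1.42 to -0.86.

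ATG9A is shown because its call hung on 1 library, and was chosen after its values were seen. Its RF level was 15.4, 6.28 and 55.7 CPM in DMSO (5, 5 and 82 counts) and 65.5, 58.1 and 29.9 CPM in rapamycin (79, 48 and 9 counts). DMSO replicate 3 lay with the rapamycin cultures and the other DMSO cultures below them all. The fitted TE change was 0.84 ± 0.62 over all cultures and 0.29 without DMSO replicate 2. Without DMSO replicate 3 it was 2.58, with an adjusted p of 0.0294 in edgeR. That setting called 331 of 12461 genes lower and 65 higher in TE, and 4 lower and 683 higher in total RNA.

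ATG2A was as uneven, with RF counts of 2, 2 and 68 under DMSO and 22, 10 and 0 under rapamycin, and its TE change was -1.06 ± 0.72. ATG2B, the member with the lowest RF level per kilobase in DMSO, had 1, 1 and 2 counts in DMSO and 2, 3 and 1 in rapamycin. No library passed 3 counts, so no fold is given for it, although its total RNA, at 14.5 to 18.0 CPM, was easily counted.

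The conjugation genes build the ATG12–ATG5–ATG16L1 complex and join ATG8 proteins to lipid. ATG7 is the shared activating enzyme, and ATG10 and ATG3 are the enzymes that act after it on ATG12 and on ATG8. ATG12 (ENSG00000145782, chr5:115163897-115177534 of GRCh37, minus strand) had an RF level of 9.23, 15.1 and 17.0 CPM in DMSO (3, 12 and 25 counts) and 6.63, 6.05 and 3.33 CPM in rapamycin (8, 5 and 1 counts). The groups did not overlap, and the rapamycin cultures were all lower in RF and in TE. Total RNA stood at 65.3 to 69.8 CPM in DMSO and 64.8 to 69.3 in rapamycin. The TE change was -1.33 ± 0.47 on the log2 scale, with an unadjusted p of 0.0130 and an adjusted p of 0.281 in edgeR, and between -1.47 and -1.14 with a culture left out.

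ATG10, which joins ATG12 to ATG5, also had separate groups and is named after its values were seen. Its RF level was 21.5, 33.9 and 17.0 CPM in DMSO and 11.6, 15.7 and 9.98 CPM in rapamycin. The 3 rapamycin cultures were below the 3 of DMSO, and the fitted TE change was -0.78 ± 0.42 with an unadjusted p of 0.085 in edgeR. It was -0.46 without DMSO replicate 2 and -1.16, with an unadjusted p of 0.020 in edgeR, without DMSO replicate 3. ATG5 itself, the partner of ATG12, gave RF counts of 5, 27 and 34 under DMSO (15.4, 33.9 and 23.1 CPM) and 31, 23 and 9 under rapamycin (25.7, 27.8 and 29.9 CPM). Its rapamycin cultures lay inside the range of DMSO, and its TE change was 0.14 ± 0.37. The other 3 were at 0.28 for ATG3, 0.11 for ATG7 and -0.49 for ATG16L1.

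In all, TE did not overlap between the treatments for 5 of the 36 members. It was lower in all rapamycin cultures for ATG10, ATG12 and WIPI2, 3 of 36 against 6.19% of all genes, and higher for ATG4A and GABARAPL1, 2 of 36 against 4.8%. In RF the same 3 genes were lower in all rapamycin cultures, against 4.21% of all genes, and GABARAPL1 alone was higher, against 5.24%.

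**Figure D5:**
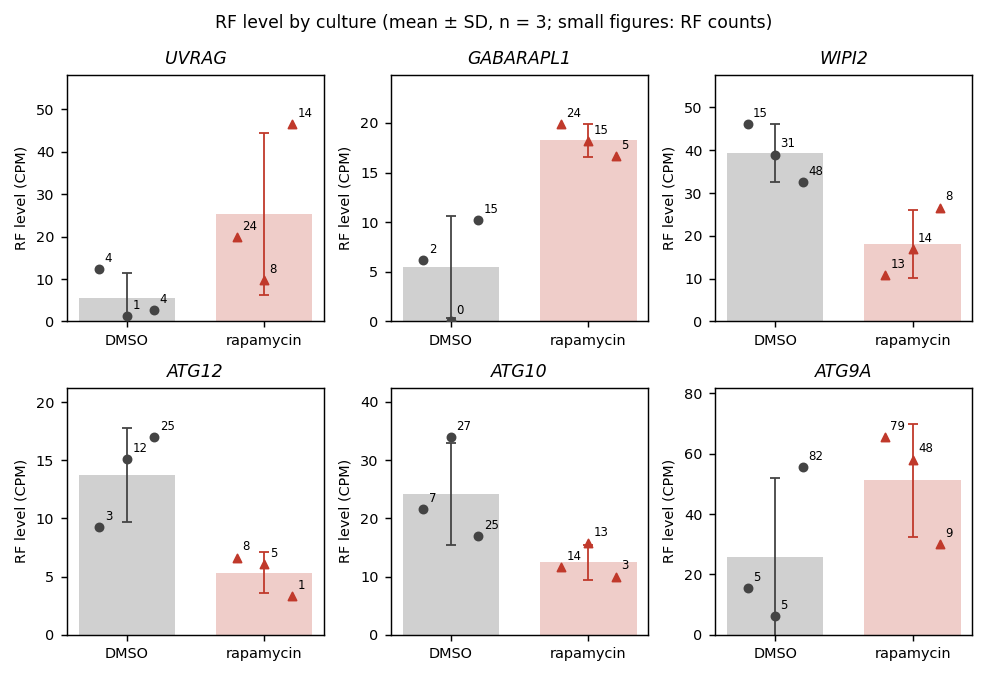
RF level in CPM (vertical axis, from 0, own scale per panel) of 6 genes by treatment, with 1 point per culture in the order of replicates 1 to 3, its RF count printed beside it, and bars and error bars at the mean ± SD (n = 3). The groups do not overlap for GABARAPL1, WIPI2, ATG12 and ATG10 and overlap for UVRAG and ATG9A, and most counts are below 50.

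The ATG4 proteases trim new ATG8 proteins before conjugation and release them from lipid afterwards. For ATG4A the RF counts were 2, 1 and 18 under DMSO and 17, 9 and 7 under rapamycin. TE was higher in all 3 rapamycin cultures although RF overlapped, and the fitted change was 0.93 ± 0.57 with an unadjusted p of 0.123 in edgeR. It was 0.49 without DMSO replicate 2 and 2.45, with an unadjusted p of 0.012 in edgeR, without DMSO replicate 3. Its total RNA went the other way, at 29.9 to 32.8 CPM in DMSO and 27.4 to 29.5 in rapamycin, without overlap. ATG4B, by far the best covered of the 4, had 25, 84 and 115 counts in DMSO and 68, 82 and 17 in rapamycin, and a TE change of -0.25 ± 0.34. ATG4C and ATG4D were at -0.52 and -0.91 with RF counts of 1 to 18 and 0 to 16 per library.

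The ATG8 family proteins are bound to the lipid of the autophagosome and hold cargo receptors there. GABARAPL1 (ENSG00000139112, chr12:10365057-10375727 of GRCh37, plus strand) showed 2, 0 and 15 RF counts across the DMSO cultures, or 6.15, 0 and 10.2 CPM. In rapamycin it had 24, 15 and 5 counts, or 19.9, 18.2 and 16.6 CPM. The rapamycin cultures lay close together and above all DMSO cultures, one of which had no count in a library where 3 counts are 3.77 CPM. Total RNA overlapped, at 25.6 to 27.4 against 25.7 to 28.7 CPM. The TE change was 1.48 ± 0.57 on the log2 scale, with an unadjusted p of 0.0218 and an adjusted p of 0.320 in edgeR. It depended on the DMSO cultures, and was 0.94 without replicate 2 and 3.30 without replicate 3.

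MAP1LC3B, whose lipid-bound protein LC3-II is the usual measure of autophagosomes, gave 13, 50 and 68 RF counts under DMSO (40.0, 62.8 and 46.2 CPM) and 81, 46 and 23 under rapamycin (67.2, 55.7 and 76.5 CPM). RF overlapped, and the TE change was 0.26 ± 0.32. Its total RNA was 57.0, 58.3 and 58.1 CPM in DMSO and 60.5, 65.2 and 60.8 in rapamycin. All 3 rapamycin cultures were higher, by 0.11 ± 0.04 on the log2 scale with an unadjusted p of 0.024 and an adjusted p of 0.766 in edgeR. MAP1LC3B was the 1 member of 36 with higher total RNA in all rapamycin cultures, against 8.22% of all genes, and ATG4A and GABARAP were the 2 with lower, against 6.61%. GABARAP stood at 12.6 to 13.0 CPM in DMSO and 11.7 to 12.3 in rapamycin, a fitted log2 change of -0.10 with an unadjusted p of 0.082 in edgeR.

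Summed over the 5 ATG8 genes, total RNA was 133 to 138 CPM in DMSO and 139 to 142 in rapamycin, without overlap. How often sums over other gene groups separate in this way was not computed. MAP1LC3B alone was at a mean of 57.8 CPM in DMSO and 62.2 in rapamycin. The RF sum overlapped, at 135, 206 and 157 CPM in DMSO against 245, 152 and 170. MAP1LC3B has a near-identical copy, MAP1LC3B2, and GABARAPL1 a near-identical processed copy, and only uniquely aligned reads were counted. Short RF reads that match a copy as well were then lost, and the levels of both genes carry that uncertainty. Other RF reads were assigned to MAP1LC3B2, whose RF level lay between 21.7 and 46.5 CPM across the cultures. Its total RNA was far lower, from 0.537 to 0.905 CPM. Whether some of those RF reads came from mRNA of MAP1LC3B was not tested.

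The cargo receptors link ubiquitinated cargo to ATG8 proteins. SQSTM1 was the member with the most RF counts in each library, with 236, 682 and 1397 counts in DMSO (726, 857 and 949 CPM) and 1133, 704 and 247 in rapamycin (939, 852 and 822 CPM). The rapamycin cultures lay within the range of DMSO. Its TE change was 0.09 ± 0.16 on the log2 scale, the smallest standard error of the members, and its total RNA change was -0.05 ± 0.04. TAX1BP1, NBR1 and OPTN had TE changes of 0.03 ± 0.30, 0.19 ± 0.57 and -0.25 ± 0.41.

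TFEB, TFE3 and MITF are basic helix-loop-helix transcription factors that bind E-box sequences in promoters of lysosomal and autophagy genes and are themselves held back by mTORC1. TFEB (ENSG00000112561, chr6:41651716-41703997 of GRCh37, minus strand) gave 4, 0 and 19 RF counts under DMSO (12.3, 0 and 12.9 CPM) and 10, 2 and 2 in rapamycin (8.29, 2.42 and 6.65 CPM). The groups overlapped through DMSO replicate 2, and the fitted TE change was -0.46 ± 0.76. TFE3, the most abundant of the 3 in total RNA, gave 8, 33 and 7 RF counts under DMSO (24.6, 41.5 and 4.76 CPM) and 7, 19 and 5 in rapamycin (5.80, 23.0 and 16.6 CPM), a TE change of -0.62 ± 0.79. Here the lowest culture was DMSO replicate 3, and without DMSO replicate 2 the fitted change was 0.64. MITF was counted almost only in DMSO replicate 3, with RF counts of 0, 0 and 21 under DMSO and 3, 1 and 0 under rapamycin, so its fitted change of -2.17 ± 1.14 rests on 1 library and had an unadjusted p of 0.078 in edgeR.

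All 3 factors thus had fitted TE changes below 0 (median -0.62), none with an unadjusted p under 0.05. Summed over the family, the RF level was 36.9, 41.5 and 31.9 CPM in DMSO and 16.6, 26.6 and 23.3 CPM in rapamycin. The sums did not overlap, the single case among the 8 role groups in RF, while total RNA of the family was 73.0 to 74.3 CPM in all 6 cultures. In DMSO replicate 2 the whole sum was TFE3, and in DMSO replicate 3 MITF and TFEB were above TFE3, so the sum does not stand for any one of them. The sum was looked at after the values were seen. Of single tested genes, 4.21% had RF lower in all rapamycin cultures, and no such share was computed for sums over other gene groups.

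TFEB's total RNA was 5.24, 5.47 and 5.79 CPM in DMSO and 4.92, 5.09 and 5.44 in rapamycin, which overlapped, with a fitted log2 change of -0.09 ± 0.08. On the FPKM scale it was 2.46, 2.52 and 2.78 in DMSO and 2.12, 2.25 and 2.24 in rapamycin, which did not overlap. How often genes separate on the FPKM scale was not computed. The limma-trend test on FPKM called no member at an adjusted p under 0.05. TFE3 was at 13.7 ± 0.29 FPKM in DMSO and 14.1 ± 0.50 in rapamycin, and MITF at 5.42 ± 0.34 and 5.49 ± 0.34 (mean ± SD, n = 3).

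The letters CACGTG are the core of the E-box that the family binds, and with flanking letters, as TCACGTGA or the CLEAR motif, which has a further letter at each end, of the motif of its lysosomal target genes. All 3 motifs read the same on both strands, and each longer one contains the shorter. They were looked for from 250 bases before to 50 after the start of the most abundant protein-coding isoform of each gene, in GRCh37 with GENCODE's annotation. CACGTG was in 4 of the 37 windows (10.8%) and in 9.68% of 12822 windows of tested genes. TCACGTGA was in 1 (2.70%) and in 1.69% of all, and the CLEAR motif in none and in 0.679% of all. The window of SQSTM1 is uncertain, because the isoforms that could be matched to the annotation held only 29.7% of its FPKM. The window of TFEB is at the start of TFEB-207, which lies inside the gene's span of chr6:41651716-41703997. TFEB-207 held 49.5% of TFEB's FPKM in DMSO and 36.9% in rapamycin, and TFEB-204 24.0% and 35.2%. The window may therefore not be at TFEB's main start. The 5 sites are printed because they are the ones that the family's own motif picks out among these promoters, TFEB's among them, each as 30 bases on the strand of its gene, with the motif in capitals.

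ATG14, chr14:55878552-55878581, minus strand, CACGTG: aaaacaaaatccCACGTGactggctctcct
ATG3, chr3:112280810-112280839, minus strand, CACGTG: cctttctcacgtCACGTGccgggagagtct
ATG5, chr6:106773691-106773720, minus strand, CACGTG: cggagttcggacCACGTGgggtctcgtgac
TFEB, chr6:41658995-41659024, minus strand, CACGTG: ctttgaggaggaCACGTGcctcatatacct
ATG3, chr3:112280787-112280816, minus strand, TCACGTGA: agagtctagtgTCACGTGAggccccggtgg

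The windows differ in their letters beside the shared core, and ATG3 holds 2 sites. Of the 4 genes with a site, none had an unadjusted p under 0.05 in TE, RF or total RNA. Their fitted total RNA changes were 0.02 for ATG14, -0.07 for ATG3, -0.03 for ATG5 and -0.09 for TFEB on the log2 scale. A C followed by at least 4 pyrimidines at the very start of the RNA, the start of the terminal oligopyrimidine mRNAs whose translation depends on mTORC1, was at the annotated start of 0 of the 37 genes and of 4.20% of the 12822. A match, or none, describes these letters in these windows only, and annotated starts can lie some bases from the start in use.

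Other genes of the pathway were counted from lists made from textbook knowledge. Of 43 further autophagy genes 39 were tested, with a median TE change of -0.08, and edgeR's unadjusted p was under 0.05 for 3, of which 2 were lower and 1 higher, and the adjusted p for none. All genes tested had 6.42% lower and 6.17% higher at that threshold. DESeq2's Wald test gave the 3 genes adjusted p-values of 0.00651, 0.0344 and 0.0162, in the order in which they follow. The lower ones were WDR45B, a relative of the WIPI proteins, at -0.89, and the kinase ULK3 at -1.34, and the higher one was VPS41, a subunit of the HOPS tether that joins autophagosomes to lysosomes, at 0.86. For WDR45B the RF level was 33.8, 52.8 and 44.8 CPM in DMSO and 21.6, 30.3 and 16.6 CPM in rapamycin. Like WIPI2, it was lower in all rapamycin cultures. VPS41 was higher in all of them, at 12.3, 27.6 and 25.1 CPM in DMSO and 35.6, 53.2 and 29.9 CPM in rapamycin. The RF levels of ULK3 overlapped. Of 18 textbook targets of TFEB outside the 37 genes 17 were tested, with a median TE change of -0.03 and a median total RNA change of -0.01. NEU1, the lysosomal sialidase, was the only one with an unadjusted p under 0.05 in TE. Its RF level was 15.4, 20.1 and 22.4 CPM in DMSO and 8.29, 13.3 and 9.98 CPM in rapamycin, lower in all rapamycin cultures. CTSD and TPP1, named after their values were seen, were higher in RF in all rapamycin cultures. CTSD stood at 1376 to 1565 CPM in DMSO and 1733 to 1962 in rapamycin, and TPP1 at 67.3 to 74.1 and 83.7 to 94.4. Of all tested genes, 4.21% were lower in RF in all rapamycin cultures and 5.24% higher. None of the 17 had an unadjusted p under 0.05 in total RNA.

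Isoform use gives a second view of total RNA. Isoform FPKM values, matched to GENCODE by transcript identifier, covered at least 90% of the gene's FPKM for 29 of the 37 genes, and least for SQSTM1, at 29.7%. Of 87 isoforms that held at least 10% of their gene's FPKM in a treatment, the share was lower in all rapamycin cultures for 3, against 5.8% of 31712 such isoforms of all genes, and higher for 2, against 5.96%. The 5 belong to TFEB, ATG3, WIPI2 (2 isoforms) and ATG10. They were looked at after their values were seen and have no test.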

How the data were processed

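Total RNA and RF libraries of PANC-1 cells were compared between DMSO and rapamycin. The authors deposited raw counts. RF reads had been filtered on quality and length, trimmed of linker and cleared of ribosomal RNA, and reads of both library types were aligned to GRCh37 with HISAT2 and, where unique, assigned by featureCounts to exons of protein-coding genes (versions not given in the sources used here). For total RNA, FPKM per gene and per isoform from Cufflinks 2.2.1 cuffnorm were also deposited. The table also holds the authors' own TE ratios and tests, which were not used.

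Counts were fitted with edgeR 4.0.16 (robust quasi-likelihood test, R 4.3.3), with TMM scaling within each library type and at least 10 counts summed over RF and 10 over total RNA, and Benjamini-Hochberg adjustment over all 13329 genes. A standard error is the fitted change divided by the root of the test's F. CPM use the library's total over the tested genes after TMM scaling within its library type, while shares in percent of a library use all its counts. The sites came from GRCh37 and GENCODE's annotation of that build, through isoforms matched by Ensembl identifier. Alternatives were DESeq2 1.42.0, limma 3.58.1 (voom, and trend on log2(FPKM + 1) or + 0.1), other scalings and filters, replicate and culture blocks, and leaving out each culture. The scripts were tested on simulated counts.

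The members, gene lists and tests were chosen with earlier results of these data known. Per-culture values are given for members with an unadjusted p under 0.05 in TE, RF or total RNA, for TFEB, TFE3, MITF, ULK1, BECN1, ATG5, MAP1LC3B and SQSTM1, and for the members with the highest and lowest RF level. Genes of the other lists are named at an unadjusted p under 0.05 in TE, except MAP1LC3B2, CTSD and TPP1. Replicates are separate samples per the labels, and reads carry no molecular identifiers.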

Additional observations from a re-analysis of the deposited data

How the results depend on the processing

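The number of members with an adjusted p under 0.05 in TE was 0 except with DESeq2's Wald test (4) and without DMSO replicate 3 (1); with a culture left out it ranged from 0 to 1. In RF and total RNA it was 0 in every alternative run. UVRAG, WIPI2, ATG12 and GABARAPL1 kept the direction of their TE change in every alternative that tested them (UVRAG and ATG12 were not tested at a minimum of 60 RF counts), with DESeq2 adjusted p-values of 0.0166, 0.00185, 0.0361 and 0.0117. Reversed TE changes (log2) belonged to genes whose fitted change was smaller than its standard error. BECN1 was -0.17 with limma voom, -0.34 with the replicate block and -0.35 with the culture block, TFEB was 0.36 with limma voom, and ULK1 was -0.019 with TMM over all libraries. With a culture left out, BECN1 ranged from -0.95 to 0.51, TFEB from -1.22 to 0.76, TFE3 from -1.48 to 0.64, ULK1 from -0.66 to 0.80, ATG5 from -0.025 to 0.39 and SQSTM1 from -0.035 to 0.17. The members' median RF change, -0.16, was 0.05 with limma voom, 0.02 with the replicate block and 0.08 without DMSO replicate 3. The causes were not tested.

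Same-numbered libraries of DMSO and rapamycin showed no shared deviation. The deviations of same-numbered RF libraries correlated at -0.12, -0.06 and -0.07 and those of total RNA at -0.11, -0.12 and -0.22. Deviations from a mean of 3 libraries are tied to each other, so these values cannot show that the treatments were unpaired. With the replicate block 0 members and 1 of 13329 genes passed an adjusted p of 0.05 in TE. Depth limits the RF values: at 3 counts or fewer in a library, a member's level cannot be told from 0.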

Other observations

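TFEB-207, the isoform with the most FPKM in DMSO, held 47.5%, 51.7% and 49.3% of TFEB in DMSO and 36.8%, 30.3% and 43.7% in rapamycin. TFEB-204 held 18.0%, 31.8% and 22.3% in DMSO and 45.2%, 39.0% and 21.4% in rapamycin, which overlapped. TFEB is the member with the second lowest FPKM. For WIPI2, the isoform with the largest share in DMSO held 32.5% ± 1.46 in DMSO and 38.9% ± 0.04 in rapamycin (mean ± SD, n = 3). ATG3-209, annotated as a target of nonsense-mediated decay, held 23.4% ± 1.60 of ATG3 in DMSO and 19.7% ± 1.70 in rapamycin, without overlap.

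The 2 measures of total RNA placed GABARAP differently. It had 85.8 FPKM but only 12.8 CPM in DMSO, so that its FPKM was 6.69 times its CPM, where the median ratio of the 37 genes was 0.379 and the next highest was 1.18 for MAP1LC3A. Where this difference comes from was not tested. Its TE level stood at the 79.8th percentile by counts and at the 49.2nd by length and FPKM, so its rank depends on the measure.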
